A study of Mus musculus with 4 samples.

Results

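The genes of glycolysis and of nutrient transport were compared between IL-10 producing and non-producing CD4+CD25+ T-cells. Their 37 members had been listed by name: glucose carriers, glycolytic enzymes, enzymes and carriers of pyruvate and lactate, the pentose phosphate pathway, amino acid transporters and the entry enzyme of the hexosamine pathway. A gene was measured where a probe set of the array named it alone, which held for 33 of the 37, out of 18194 genes on the array. Gpi1, Eno1, Mpc2 and G6pdx were not analysed here. Gapdh was read alone only by probe sets that serve as controls of the array, so its values are described without a test, and 32 members were tested.

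All cells came from C57Bl/6 mice, 6 to 12 weeks of age, that had received D665 by intraperitoneal injection. D665 is a superagonistic antibody to CD28 (CD28SA) that drives regulatory T-cells (Tregs) to expand. CD4+CD25+ T-cells taken from lymph nodes 3 days later were kept over night in human IL-2 at 200 U/ml, anti-CD28 at 5 µg/ml and anti-CD3 at 2 µg/ml. They were then stained for IL-10 and sorted into 2 IL-10+ and 2 IL-10- samples, each hybridized to 1 Affymetrix mouse array. Both groups thus shared the antibody, the culture and the strain and were parted by IL-10. The groups also differed in control transcripts added for labelling, which do not come from the cells, by 1.22 at the 5' end (median of 4 transcripts, log2). The part of this technical difference in the results below was not tested. Untreated mice were not analysed here. The samples were gated on CD25 and not on Foxp3. The labels leave unsaid which mice, and how many, gave the cells of each sample. A p-value here sets the group difference against the spread between samples of a group, taken in part from the other probe sets. That spread may be technical, and a p-value here reflects no spread beyond it. All values are log2 values per probe set, differences are IL-10+ minus IL-10-, and a gene is said to have risen or fallen where limma, a moderated linear model fitted to all 45037 probe sets that are not controls, gave an adjusted p under 0.05. Where several probe sets read a gene, its value is that of the brightest, with the highest mean over all arrays. The base of the logarithm is not stated for the values themselves, and the figure legends of the study give fold changes of these arrays as natural logarithms. The values reach 14.42 and were read as log2. Read as natural logarithms, the differences would be larger on the log2 scale, with a median over the members of -0.39 in place of -0.27, and the same calls at an adjusted p of 0.05.

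Over all probe sets the median value was 6.41 for each IL-10+ array, 6.35 for IL-10- replicate 3 and 6.32 for IL-10- replicate 4. Of 9 markers of Tregs and T-cells 4 rose and 2 fell. Il10 stood at 12.02 and 12.00 on the IL-10+ arrays and at 10.41 and 10.37 on the IL-10- arrays. Foxp3, which specifies Tregs, was well measured in both groups and fell from 11.55 and 11.55 to 10.86 and 10.79. Cd4 rose by 0.51, while Cd3e (0.12) and Il2ra, which encodes CD25 (-0.22), did not pass. Among 14 B cell and plasma cell markers 11 fell and 1 rose, with Igha at 7.18 and 7.24 on the IL-10+ and at 12.58 and 12.74 on the IL-10- arrays. The mean level over this list was 7.30 to 7.32 in IL-10+ and 8.62 in both IL-10- samples, and its members ran from Igha (-5.45) to Prdm1 (0.39). Genes of the B cell surface on this list fell, among them Ms4a1 (-1.22), Cd79b (-1.06), Cd22 (-0.90) and Cd79a (-0.58). The B cell transcription factors Pax5 (-0.03) and Ebf1 (0.02) did not pass, but their means, 6.16 and 5.90, were below the median of every array. Of the 5 NK cell markers 3 fell (Klrd1, -1.13) and 1 rose, and their mean level was 6.90 to 6.93 against 7.23 in both IL-10- samples. Of the 9 markers of myeloid and dendritic cells 1 fell (H2-Aa, -3.71) and 2 rose, Cd14 (0.49) and Csf1r (0.30). The mean level of these 9 was 6.39 to 6.40 against 6.72 to 6.77, while their median difference was -0.004. Of the CD8 markers Cd8b1 fell (-0.24). The erythroid markers did not pass, the larger difference being that of Hba-a1 (-0.05). The part of other cells in the results below was not tested, and in bulk samples fewer cells of a type and less RNA per cell cannot be told apart.

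T-cells that are activated to divide take up glucose and turn most of it into lactate, even in the presence of oxygen, and the intermediates of glycolysis feed nucleotide, lipid and amino acid synthesis. The pentose phosphate pathway branches off at glucose 6-phosphate and yields NADPH and ribose 5-phosphate. Large neutral and basic amino acids and glutamine enter through dedicated carriers, and many of these genes are known targets of MYC and of the hypoxia factor HIF-1, which binds the letters ACGTG.

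Of the 32 tested members 15 fell in IL-10+ cells, 0 rose and 17 did not pass. The largest falls were those of Ldhb, the heart-type subunit of lactate dehydrogenase (-0.98 on the log2 scale), Pgd, the NADPH-forming 6-phosphogluconate dehydrogenase (-0.83), Pfkl, the liver-type phosphofructokinase (-0.82), and Pgls, which supplies the substrate of Pgd (-0.71). The 17 members that did not pass ran from -0.29 (Gfpt1) to 0.19 (Mpc1). Over all 18193 genes, 22.9% fell and 8.37% rose by their brightest probe sets. The members are mostly bright, however, and of the 3530 genes with a mean of at least 9, 45.5% fell and 14.7% rose. Against that background the 11 of 26 members of such brightness that fell are no excess, and the median difference of these 26, -0.22, lies beside -0.19 for the bright genes. For all 32 members the median was -0.27, and -0.01 for all genes. Both IL-10+ arrays lay below both IL-10- arrays for 22 members and above them for 2, Pdha1 and Mpc1, against 37.8% and 26.6% of all genes (64.4% together). Here too brightness matters: of the 26 bright members 17 lay below and 2 above, and of the 3530 bright genes 2176 lay below and 842 above. The stricter threshold of the study was an adjusted p under 0.001 and a 2-fold difference or more. By their brightest probe sets 0 members met it (0.792% of all genes were lower and 0.462% higher), although 15 fell at the adjusted p of 0.05. Some dimmer probe sets did meet it, lower for Ldhb (-1.56, -1.59 and -2.24) and higher for Slc2a3 (2.47 and 2.39) and Pfkp (2.61). With the values read as natural logarithms, 4 members were lower at this threshold by their brightest probe sets, Ldhb, Pgd, Pfkl and Pgls, and 0 higher (3.32% and 1.2% of all genes).

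**Figure D1:**
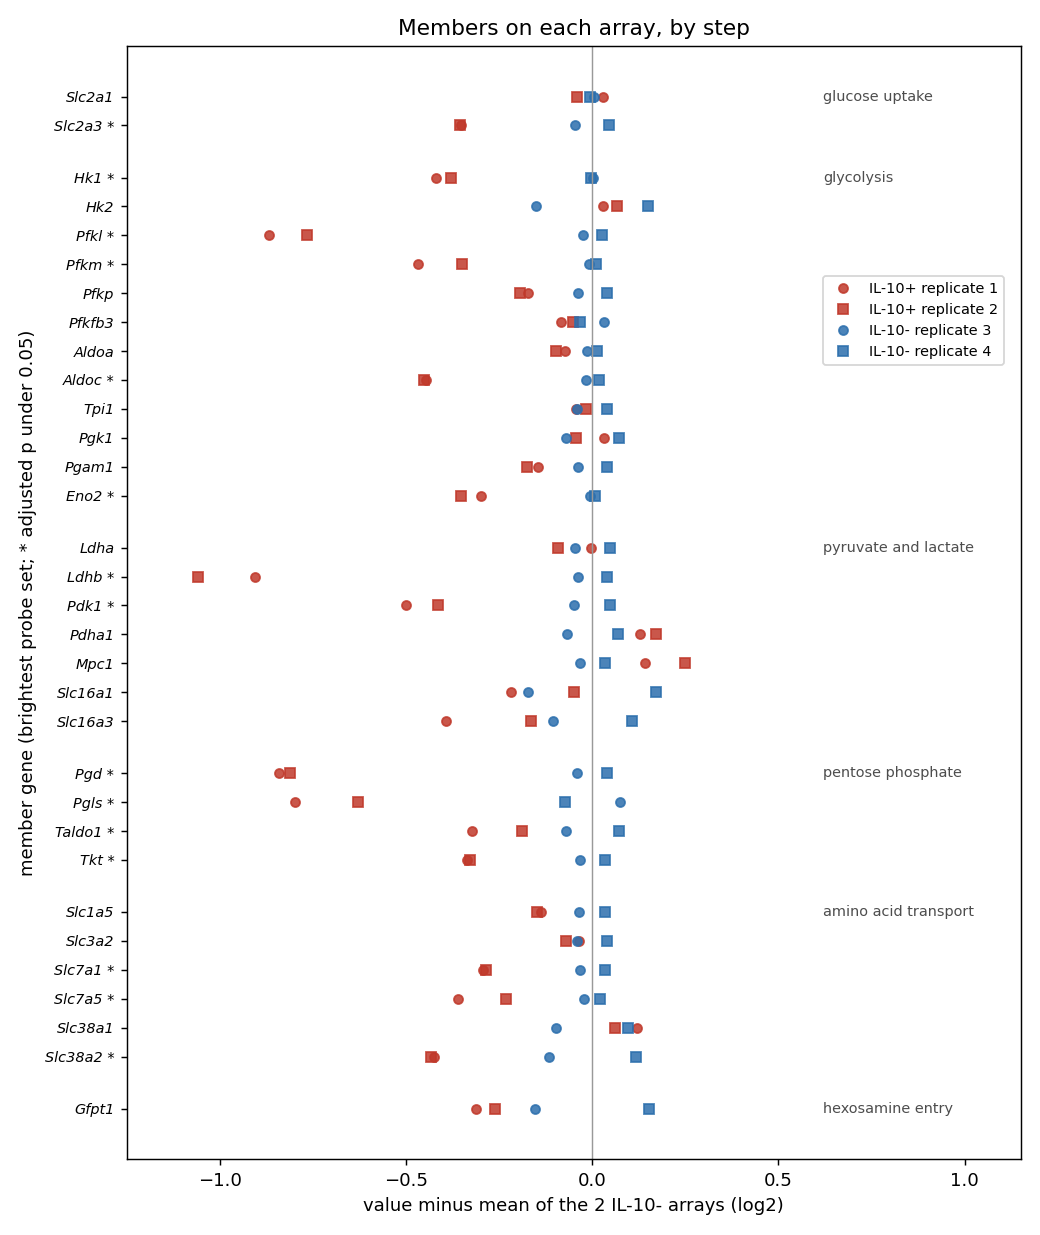
Each array's value for the brightest probe set of the tested members (vertical axis, by step), less the average of both IL-10- arrays (horizontal axis, log2). Points are single arrays, and an asterisk marks an adjusted p under 0.05. Both IL-10+ arrays lie to the left of both IL-10- arrays for Ldhb, Pgd, Pfkl and Pgls, and the groups overlap for Slc2a1, Hk2, Pgk1 and Ldha.

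The stretch of DNA just before the gene starts was set beside these differences. RefSeq windows (GRCm38.p6) were found for 29 of the 33 measured members, and the 250 bases before each annotated start were searched on both strands for ACGTG, the core that HIF-1 binds, for CACGTG, the E-box bound by MYC with MAX, and for TGACNNNGC, the core of the antioxidant response element bound by NRF2. Each CACGTG also holds ACGTG, on both strands. The core ACGTG was found before 12 of the 29 members (41.4%) and before 18.5% of 27025 genes with a window. CACGTG was found before 4 members (13.8%, against 6.86%) and TGACNNNGC before 6 (20.7%, against 11.5%). Of the tested members that did not pass, 11 of 15 held ACGTG, and of those that fell, 1 of 13 did, namely Pfkm. Over all tested genes with a window the shares were 21.0% for those that did not pass, 25.7% for those that fell and 25% for those that rose. Over the genes with a mean of at least 9, which not all members reach, they were 28.8%, 27.3% and 30.7%. The median difference was -0.08 for the 12 members with the core, which ran from -0.41 to 0.05, and -0.37 for the 16 without it, which ran from -0.98 to 0.19. The motifs were chosen with the differences known, and whether the split of the members differs from that of other genes was not tested. A match is no proof of binding, and no match says only that these letters are not in this window. After median centring of the arrays, 4 of the 17 members with a window that then fell held the core, and so did 4 of 17 without IL-10- replicate 3.

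The windows below are those of both lactate dehydrogenase subunits, of a glucose carrier and a glycolytic enzyme that did not pass, and of 2 pentose phosphate enzymes that fell. They are given 5′ to 3′, with ACGTG or its reverse complement in capitals. They lie at chr7:46845554-46845803 on the plus strand (Ldha), chr6:142507958-142508207 on the minus strand (Ldhb), chr4:119108495-119108744 on the plus strand (Slc2a1), chrX:106186850-106187099 on the plus strand (Pgk1), chr4:149166706-149166955 on the minus strand (Pgd) and chr7:141391910-141392159 on the plus strand (Taldo1). Each ends at the base before an annotated start of transcription, the most upstream one where RefSeq gives several. Windows of the members that broke the split are not printed. Pfkm fell and holds the core, and Pfkp, Tpi1, Pdha1 and Mpc1 did not pass and lack it.
Ldha: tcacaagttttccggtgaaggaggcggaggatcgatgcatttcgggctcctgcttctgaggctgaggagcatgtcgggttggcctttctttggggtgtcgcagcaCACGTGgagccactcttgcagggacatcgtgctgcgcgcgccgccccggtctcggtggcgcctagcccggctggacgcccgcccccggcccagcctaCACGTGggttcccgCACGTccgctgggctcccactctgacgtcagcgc
Ldhb: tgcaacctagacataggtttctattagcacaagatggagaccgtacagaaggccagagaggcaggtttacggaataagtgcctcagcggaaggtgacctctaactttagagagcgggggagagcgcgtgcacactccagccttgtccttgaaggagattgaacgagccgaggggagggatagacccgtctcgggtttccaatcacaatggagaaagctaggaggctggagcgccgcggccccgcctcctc
Slc2a1: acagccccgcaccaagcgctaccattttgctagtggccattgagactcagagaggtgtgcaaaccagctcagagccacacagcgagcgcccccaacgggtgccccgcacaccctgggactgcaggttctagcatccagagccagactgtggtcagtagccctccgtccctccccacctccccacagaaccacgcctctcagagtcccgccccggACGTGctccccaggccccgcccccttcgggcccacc
Pgk1: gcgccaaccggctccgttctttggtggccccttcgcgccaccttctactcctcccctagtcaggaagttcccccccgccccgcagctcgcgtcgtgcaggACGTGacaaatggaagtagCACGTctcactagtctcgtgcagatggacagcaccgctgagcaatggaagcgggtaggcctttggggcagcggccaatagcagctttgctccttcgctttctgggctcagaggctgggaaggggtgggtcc
Pgd: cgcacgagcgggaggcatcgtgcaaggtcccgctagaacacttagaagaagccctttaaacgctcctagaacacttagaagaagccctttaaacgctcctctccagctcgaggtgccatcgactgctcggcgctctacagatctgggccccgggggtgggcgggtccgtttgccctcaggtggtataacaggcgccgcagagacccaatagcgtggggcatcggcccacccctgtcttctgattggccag
Taldo1: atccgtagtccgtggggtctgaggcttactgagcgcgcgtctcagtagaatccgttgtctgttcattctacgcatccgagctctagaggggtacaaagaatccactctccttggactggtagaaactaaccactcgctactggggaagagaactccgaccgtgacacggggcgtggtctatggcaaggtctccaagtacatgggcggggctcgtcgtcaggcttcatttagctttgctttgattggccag
The printed window of Ldha holds 2 E-boxes and, counted on both strands, 5 cores, that of Pgk1 holds 2 cores and that of Slc2a1 holds 1. Those of Ldhb, Pgd and Taldo1 hold none of the motifs searched, with a GC content of 56.4%, 60.4% and 54.4%, against 67.2% for Ldha, 66.4% for Slc2a1 and 62.8% for Pgk1. Ldha and Pgd each have a further window, at a start downstream, and in both of these 0 of the motifs were found.

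**Figure D2:**
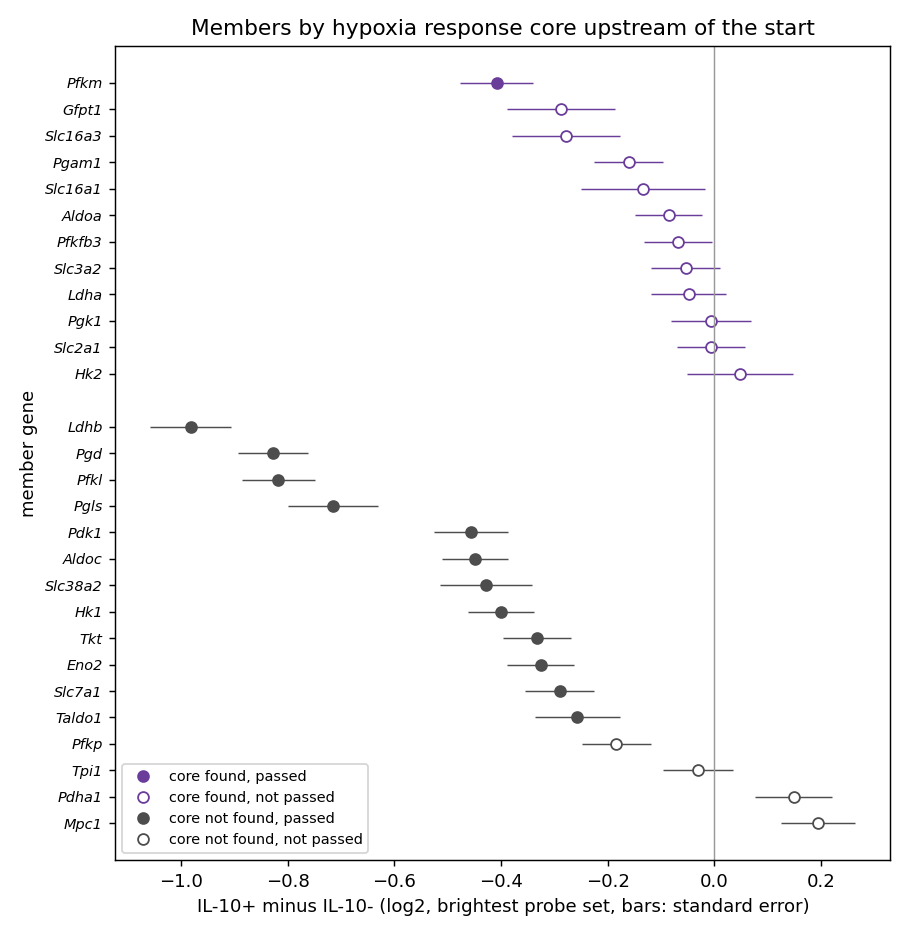
The horizontal axis gives IL-10+ minus IL-10- (log2, with limma standard errors as bars) for the 28 tested members with a RefSeq window (vertical axis), split by whether the 250 bases before a start hold the hypoxia response core. Filled points passed at an adjusted p of 0.05. In the upper block, with the core, Pfkm passed, and in the lower block 12 of 16 passed.

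Of the glucose carriers, the basal carrier Slc2a1 did not pass and the high-affinity carrier Slc2a3 gave opposite answers by probe set. Slc2a1 (GLUT1) stood at 11.62 and 11.56 on the IL-10+ arrays and at 11.60 and 11.59 on the IL-10- arrays. The groups overlapped, the 95% interval of the difference ran from -0.15 to 0.14, and its dimmer probe sets did not pass either (0.05 and 0.02). The brightest probe set of Slc2a3 (GLUT3) stood at 12.06 and 12.06 on the IL-10+ arrays and at 12.37 and 12.46 on the IL-10- arrays. It fell by 0.35 (standard error 0.07, adjusted p = 0.00519), as did the next one by 0.39. Its 2 dimmer probe sets rose, by 2.47 and 2.39. The brighter of them stood at 8.52 and 8.94 on the IL-10+ arrays and at 6.42 and 6.11 on the IL-10- arrays, and the groups were far apart there. The 2 probe sets that fell carry the marks x or s, which Affymetrix gives where probes may match several genes, and those that rose do not. With the mean over its 4 probe sets Slc2a3 rose by 1.03 (adjusted p = 6.56e-05), so its direction rests on the probe set read.

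Glycolysis itself had 5 of 12 tested members lower and 0 higher, and the 5 were Hk1, Pfkl, Pfkm, Aldoc and Eno2. The share that fell, 41.7%, lies beside 22.9% of all genes and 45.5% of those with a mean of at least 9, which 9 of the 12 reach. Of the hexokinases, which trap glucose in the cell, the brightest probe set of Hk1 fell from 11.61 and 11.61 to 11.19 and 11.23 (difference -0.40, standard error 0.06). Hk2, the inducible form, stood at 9.30 and 9.33 against 9.12 and 9.42 and did not pass (0.05, 95% interval from -0.18 to 0.28). The IL-10+ arrays of Hk2 lay between the IL-10- arrays.

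Phosphofructokinase commits the sugar to glycolysis and is assembled from 3 kinds of subunit. The liver-type Pfkl fell most, from 11.31 and 11.36 on the IL-10- arrays to 10.46 and 10.57 on the IL-10+ arrays, a 1.76-fold difference (adjusted p = 0.000135), and its second probe set fell by 0.56. The muscle-type Pfkm, read by 1 probe set, fell from 7.88 and 7.91 to 7.43 and 7.55. The platelet-type Pfkp stood at 12.28 and 12.26 in IL-10+ and at 12.42 and 12.49 in IL-10- cells and did not pass (-0.18, adjusted p = 0.0719; -0.26 and past the threshold after median centring). Its dimmer probe sets rose, the second by 2.61 and the dimmest from 6.64 and 7.11 to 7.85 and 7.90. Pfkfb3, which makes the activator fructose 2,6-bisphosphate, differed by -0.07 in its brightest and rose by 0.43 in its dimmer probe set.

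From aldolase to enolase, Aldoc and Eno2 fell and Aldoa, Tpi1, Pgk1 and Pgam1 did not pass. Aldoa, the aldolase of most tissues, stood at 13.18 and 13.16 against 13.24 and 13.27 (-0.09, adjusted p = 0.368), with 2 of its 5 probe sets lower. Aldoc, the brain-type aldolase, fell from 11.87 and 11.91 to 11.44 and 11.44 (adjusted p = 0.00127) and by 0.62 in its second probe set. Eno2, the neuronal enolase, fell from 6.26 and 6.27 to 5.97 and 5.91, values near the lower quartile of the arrays (5.78 to 5.83), and without IL-10+ replicate 2 it did not pass (adjusted p = 0.0661). Tpi1 (-0.03) and Pgk1 (-0.01), the triose phosphate isomerase and the first ATP-forming enzyme, had 95% intervals from -0.18 to 0.12 and from -0.18 to 0.17. Each of their 3 probe sets failed to pass, and the groups overlapped in the brightest. Pgam1, the phosphoglycerate mutase, differed by -0.16 (adjusted p = 0.111; -0.24 and past the threshold after median centring).

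Gapdh, which forms NADH at the centre of the pathway, was read near both ends and in the middle of its transcript by the control probe sets. At the 3' end it stood at 13.92 and 13.86 on the IL-10+ and at 13.84 and 13.89 on the IL-10- arrays, so the groups overlapped. At the 5' end it was 14.00 and 13.89 against 13.42 and 12.72. The difference thus was 0.02 at the 3' end, 0.33 in the middle and 0.88 at the 5' end. Poly-A transcripts of bacteria that had been added for labelling differed in the same order, by 0.04 at the 3', 0.82 in the middle and 1.22 at the 5' end (medians of 4 transcripts). Of these, dap stood at 9.68 and 9.91 on the IL-10+ and at 8.14 and 7.14 on the IL-10- arrays at its 5' end. For b-Actin the difference was 0.40 at the 3' and 1.12 at the 5' end. In Pcx, the pyruvate carboxylase that feeds the citrate cycle, the control probe sets differed by -0.29 at the 3' and 0.22 at the 5' end.

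Slc2a3 and Hk1 had probe sets that passed in opposite directions, as did 1078 of the 9010 genes with several probe sets (12.0%), against 2 of 21 members (9.52%). The second probe set of Hk1 stood at 10.16 and 10.27 on the IL-10+ arrays and at 8.95 and 7.85 on the IL-10- arrays. The second of Pfkp stood at 10.88 and 10.83 against 8.79 and 7.70. In both, as at the 5' end of Gapdh, both IL-10+ arrays lay above both IL-10- arrays and IL-10- replicate 4 was the lowest of the 4. Where along the transcript these probe sets lie was not analysed here, and the part of the 5' difference in their values was not tested. Over the 44 dimmer probe sets of the members, 10 rose and 15 fell, beside 20% and 13.4% of all dimmer probe sets. In Ldhb and Pgd, by contrast, all 4 probe sets fell.

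**Figure D3:**
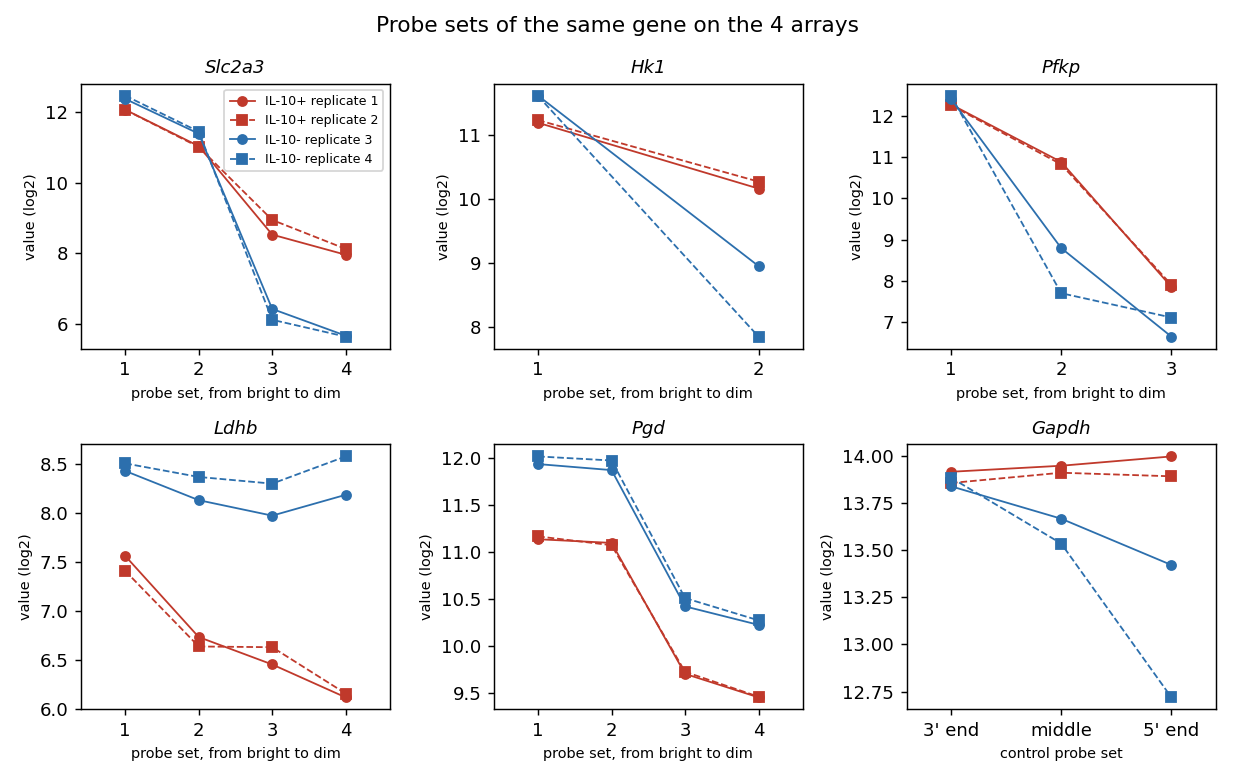
Values (log2, vertical axes, which differ between panels) on the 4 arrays for the probe sets of Slc2a3, Hk1, Pfkp, Ldhb and Pgd, from bright to dim, and for the control probe sets of Gapdh from the 3' to the 5' end. Lines join the values of 1 array. The groups change order between probe sets in Slc2a3, Hk1 and Pfkp, keep it in Ldhb and Pgd, and part towards the 5' end in Gapdh, by 0.88.

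**Figure D4:**
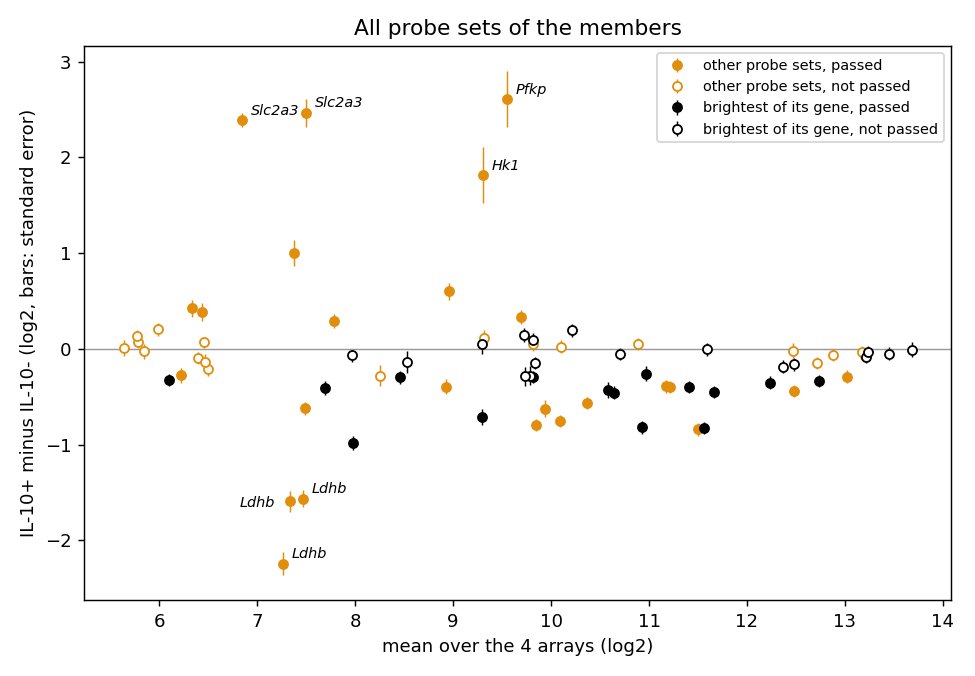
IL-10+ minus IL-10- (log2, vertical axis, with limma standard errors as bars) against the mean over the 4 arrays (log2, horizontal axis) for all 76 probe sets of the tested members. Black points are the brightest of their gene and lie between -0.98 and 0.19, and the other probe sets (orange) run from -2.24 to 2.61.

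At the end of the pathway, the subunits of lactate dehydrogenase parted. Ldha, the muscle-type subunit that favours the making of lactate, stood at 13.47 and 13.38 on the IL-10+ and at 13.43 and 13.52 on the IL-10- arrays. The groups overlapped, and the 95% interval of the difference ran from -0.21 to 0.12. Ldhb, which favours the use of lactate, stood at 7.56 and 7.41 on the IL-10+ and at 8.43 and 8.50 on the IL-10- arrays, a 1.97-fold difference in its brightest probe set (standard error 0.08 on the log2 scale, adjusted p = 9.57e-05). Its other probe sets fell too (-1.56, -1.59 and -2.24). The dimmest stood at 6.12 and 6.16 against 8.18 and 8.58, so that the size of the fall, not its direction, depended on the probe set. Of the windows printed above, that of Ldha held 5 cores and that of Ldhb none, and the further window of Ldha held none either.

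Of the members that act on pyruvate in mitochondria, Pdk1 fell and Pdha1 and Mpc1 did not pass. Pdk1, which inactivates pyruvate dehydrogenase, fell from 10.83 and 10.92 to 10.37 and 10.46 (adjusted p = 0.00205), and 3 of its 4 probe sets fell. Pdha1, a catalytic subunit of that dehydrogenase, stood at 9.78 and 9.82 in IL-10+ and at 9.58 and 9.72 in IL-10- cells (0.15, adjusted p = 0.175), and its other probe set rose by 0.33. Of the other subunits of the dehydrogenase complex, which were not members, Pdhb fell by 0.35 (adjusted p = 0.00514) and Pdhx by 0.23 (adjusted p = 0.039). Dlat (-0.09, adjusted p = 0.386) and Dld (0.19, adjusted p = 0.0719) did not pass. Mpc1, a subunit of the mitochondrial pyruvate carrier, stood at 10.26 and 10.36 against 10.08 and 10.15 (0.19, adjusted p = 0.0752). Pdha1 and Mpc1 were above the IL-10- arrays on both IL-10+ arrays, and both passed upwards after quantile normalization (0.25 and 0.31) and without IL-10- replicate 4 (0.22 and 0.23).

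The monocarboxylate carriers that export lactate did not pass. Slc16a1 (MCT1) stood at 8.38 and 8.54 in IL-10+ and at 8.42 and 8.77 in IL-10- cells. The groups overlapped (-0.13, adjusted p = 0.463), and without IL-10- replicate 3 the gene fell by 0.31. Slc16a3 (MCT4) stood at 9.54 and 9.76 against 9.82 and 10.04 (-0.28, adjusted p = 0.0802), and it fell after median centring (-0.35) and without IL-10- replicate 3 (-0.38) or IL-10+ replicate 2 (-0.39). Bsg, the chaperone basigin that brings both carriers to the membrane, was not a member and rose, from 11.43 and 11.14 to 12.10 and 12.19 (0.86, adjusted p = 0.000601). It was the largest rise among the further genes of the pathway that were counted.

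The pentose phosphate pathway was the step at which every tested member fell, 4 of 4, beside 22.9% of all genes and 45.5% of the bright ones. Pgls, the 6-phosphogluconolactonase, fell from 9.72 and 9.58 to 8.85 and 9.02 (1.64-fold, adjusted p = 0.00062). Pgd, which releases NADPH and the pentose, fell from 11.94 and 12.02 on the IL-10- arrays to 11.14 and 11.17 on the IL-10+ arrays (1.77-fold, standard error 0.07 on the log2 scale, adjusted p = 0.000106). Its 4 probe sets fell by nearly equal amounts, 0.75 to 0.84. In Pgls and Pgd, the tested genes of the oxidative arm, the gap between the groups was several times that between replicates. G6pdx, the remaining member of this pathway, was not analysed here.

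The enzymes of the non-oxidative arm, which return pentoses to glycolysis, fell less. Tkt, the transketolase, went from 12.87 and 12.94 to 12.57 and 12.58 (-0.33, adjusted p = 0.00612), and 2 of its 3 probe sets fell. Taldo1, the transaldolase, went from 11.03 and 11.17 to 10.78 and 10.91 (-0.26, adjusted p = 0.0458). Its call was at the threshold: it was lost with quantile-normalized values (-0.13) and without IL-10+ replicate 1 (-0.19), IL-10+ replicate 2 (-0.32) or IL-10- replicate 4 (-0.19). Of 7 further genes of the pathway, 3 fell and 1 rose. H6pd, which runs the oxidative steps in the endoplasmic reticulum, fell by 0.63, Rbks, the ribokinase, by 0.33 and Rpia, which isomerizes ribose 5-phosphate, by 0.33. Rpe, the epimerase of ribulose 5-phosphate, rose from 8.80 and 8.92 to 9.61 and 9.58 (0.73).

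Of the 6 amino acid transporters, 3 fell, by 0.29 to 0.43 on the log2 scale, and 0 rose. The share that fell, 50%, lies beside 22.9% of all genes and 45.5% of those with a mean of at least 9, which 5 of the 6 reach. Slc38a2 (SNAT2), a sodium-coupled carrier of small neutral amino acids that is induced by their lack, fell from 10.68 and 10.91 to 10.37 and 10.36 (adjusted p = 0.00747). Slc7a1 (CAT1), the carrier of arginine and lysine, fell from 9.92 and 9.99 to 9.66 and 9.67 in its brightest probe set, while its others differed by 0.12 and 0.21, and its call was lost on leaving out either IL-10+ array (adjusted p = 0.0816 and 0.074) and with quantile-normalized values (adjusted p = 0.0514). Slc7a5 (LAT1), the transporting chain for leucine and other large neutral amino acids, fell from 8.59 and 8.63 to 8.25 and 8.37 (adjusted p = 0.0159), but not without IL-10+ replicate 1 (adjusted p = 0.151).

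The partner chain Slc3a2 did not pass, nor did Slc1a5 and Slc38a1, which carry glutamine. Slc3a2 (CD98), the heavy chain that Slc7a5 needs, stood at 10.69 and 10.66 in IL-10+ and at 10.69 and 10.77 in IL-10- cells (95% interval of the difference from -0.21 to 0.10). Slc1a5 (ASCT2) stood at 9.77 and 9.76 against 9.87 and 9.94 (-0.14, adjusted p = 0.143), and its second probe set rose by 0.39. Slc38a1 (SNAT1) stood at 9.90 and 9.84 against 9.68 and 9.87 (0.09, adjusted p = 0.476), and its second probe set rose by 0.60. Of 20 further amino acid transporters 1 fell and 0 rose. It was Slc43a2 (LAT4), a carrier of branched-chain amino acids, which went from 9.68 and 9.88 to 8.85 and 8.89 (-0.90).

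Gfpt1, which diverts fructose 6-phosphate into the hexosamine pathway for protein glycosylation, stood at 9.57 and 9.62 in IL-10+ and at 9.73 and 10.03 in IL-10- cells (-0.29, adjusted p = 0.0719). It fell after median centring (-0.36) and without IL-10- replicate 3 (-0.44), and of its 6 probe sets the second rose by 0.29 and the others did not pass. Of 9 further hexosamine genes 3 rose (33.3%, beside 8.37% of all genes and 14.7% of the bright ones) and 0 fell. They were Gnpda2, which runs the entry step backwards (0.71), Uap1, which makes UDP-N-acetylglucosamine (0.34), and Pgm3, the mutase before it (0.31).

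The further genes of glycolysis and pyruvate moved in both directions. Over all 82 further genes of the pathway, those of the other steps included, 16 fell (19.5%) and 9 rose (11%). Of all genes 22.9% fell and 8.37% rose. Of 19 further glycolytic genes 5 fell and 3 rose. Eno3, the muscle enolase, fell by 0.71, Pgm1, which links glycogen to glycolysis, by 0.38, and Pkm, the pyruvate kinase of T-cells, by 0.23. Gpd2, which carries electrons of cytosolic NADH to mitochondria, rose from 9.32 and 9.30 to 9.68 and 9.68 (0.37). Of 17 further genes of pyruvate and lactate 6 fell and 2 rose. Among the lower ones were Pdp2, the phosphatase that activates pyruvate dehydrogenase (-0.60), and Pcx (-0.36). Of 10 further glucose carriers 1 fell, Slc2a8 (-0.23).

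Among 13 regulators of glucose use 4 rose (30.8%) and 1 fell (7.69%). Of all genes 8.37% rose and 22.9% fell, and of the bright ones 14.7% and 45.5%. Hif1a, the oxygen-sensitive subunit of HIF-1, rose from 12.36 and 12.39 to 12.65 and 12.66 (adjusted p = 0.0127), and Egln1, a prolyl hydroxylase that marks it for decay, fell from 10.66 and 10.87 to 10.18 and 10.14 (adjusted p = 0.00113). Stk11 (LKB1), a kinase that activates AMPK, rose by 0.28. Egln3, a prolyl hydroxylase of the same family as Egln1, was also called higher (0.23, adjusted p = 0.0412), so these hydroxylases moved in opposite directions. Txnip, which restrains glucose uptake, was called higher too (0.21). Myc stood at 8.40 and 8.35 in IL-10+ and at 8.35 and 8.49 in IL-10- cells and did not pass (-0.04).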

How the data were processed

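RNA of 2 IL-10+ and 2 IL-10- samples was hybridized to Affymetrix whole-genome mouse arrays, 1 for each. The deposited values were log2 values per probe set that the authors had made by variance stabilization of the signal intensities across the 4 arrays with Bioconductor packages. The log base was read from their range, and the way in which probes were summarised is not given in the sources used here. The amount of RNA labelled was 100 ng per the labels, and the methods name another kit and amount. Samples were grouped by their labels.

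Of 45101 probe sets 64 are controls and 45037 were tested with limma (version 3.58.1, under R version 4.3.3; linear model with eBayes, two-sided, Benjamini-Hochberg adjustment over all of them, no covariates), after the comparison in the study's methods. The fit had 2 residual and 5.44 prior degrees of freedom. An exact permutation test of 2 against 2 arrays cannot give a p below 0.333 and was not used. Probe sets were named by the platform annotation: 34958 name 1 gene, 932 several and 9211 none, and genes were taken from the first kind alone. In simulated data of the same size, 100 probe sets were changed by a log2 difference of 0.5 and 100 by 1. The fit called 54% of the former and 100% of the latter, and it also called 17 probe sets that had not been changed. In the real data 13.6% of all probe sets rose and 16.2% fell, far more than were changed in the simulation. The adjustment is stricter where fewer probe sets change, so these shares do not give the power of the comparison made here.

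Members and lists were chosen with earlier results of these data known. All members are named, and of each further list the 3 passing genes with the largest difference, with the largest of each marker list. Rpia, Pkm, Pdhb, Pdhx, Dlat, Dld, Egln3, Txnip, Myc, Pax5, Ebf1, Ms4a1, Cd79b, Cd22, Cd79a, Prdm1, Cd14 and Csf1r were added after their values were seen. Alternatives were quantile normalization, median centring, filters on dim and on x and s probe sets, other priors, the mean over probe sets, the second brightest probe set, natural logarithms, the threshold of the study and leaving out each array. The study's threshold together with natural logarithms was chosen after seeing the data. With so few arrays, their number sets the precision.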

Additional observations from a re-analysis of the deposited data

Results flagged for a closer look

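A signal outside the tested probe sets appeared in the array's control probe sets, which enter no comparison. Gapdh at its 5' end was higher on both IL-10+ than on both IL-10- arrays, by 0.88 on the log2 scale, against 0.02 at its 3' end. The added poly-A transcripts at their 5' end differed by 1.22 (median of 4 transcripts, from 0.68 to 2.16), against 0.04 at their 3' end.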

How the results depend on the processing

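No paired analysis was possible because the groups share no replicate numbers. The number of members that fell, 15, ranged from 12 to 19 when 1 array was left out, and was 13 after quantile normalization and 20 after median centring. It was 9 of 21 by the second brightest probe set. By the brightest it was 0 at the threshold of the study and 4 at that threshold with natural logarithms, an alternative chosen after seeing the data. The number that rose, 0, ranged from 0 to 2 when 1 array was left out (2 without IL-10- replicate 4), and was 2 after quantile normalization, 2 without x and s probe sets, 6 with the mean over probe sets and 7 of 21 by the second brightest probe set. The median difference, -0.27, ranged from -0.32 to -0.16 when 1 array was left out, and was -0.15 after quantile normalization, -0.34 after median centring, -0.068 with the mean over probe sets, -0.036 by the second brightest probe set and -0.39 for natural logarithms. The cause of these shifts was not tested.

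Turned directions are given in full for members that were called by their brightest probe set or under the alternative. With the mean over probe sets the direction turned for Slc2a3 (1.03), Hk1 (0.71), Pfkp (1.14) and Slc7a1 (0.012, adjusted p = 0.911), and without x and s probe sets for Slc2a3 (2.47). By the second brightest probe set it turned for Hk1 (1.82), Pfkp (2.61), Pfkfb3 (0.43), Slc1a5 (0.39), Gfpt1 (0.29) and Slc7a1 (0.12, adjusted p = 0.331). Among members called in neither, the sign also turned with the mean over probe sets for Slc2a1 (0.023), Pfkfb3 (0.18) and Slc1a5 (0.12), by the second brightest probe set for Slc2a1 and Slc16a1, and after quantile normalization for Slc2a1, Aldoa, Tpi1, Pgk1, Ldha and Slc3a2 (0.058 to 0.15). When 1 array was left out, the calls of Taldo1, Slc7a1, Slc7a5 and Eno2 were lost in at least 1 of the 4 fits, and those of the other 11 members that fell were kept in each.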
